A study of Homo sapiens with 8 samples.

Results

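The genes described here are 54 genes of the entry into, and the exit from, the endoplasmic reticulum (ER), taken from a list of gene symbols and matched by Ensembl identifier in the count table. All 54 were among the 36715 genes of that table. They were grouped by the machine in which their proteins work: the signal recognition particle (SRP) and its receptor (8 genes), the translocon (12), the signal peptidase (5), the COPII coat (13), the cargo receptors and p24 proteins (9), and the COPI coat with ARFGAP3 (7).

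Secreted and membrane proteins are recognised as they leave the ribosome by SRP, which docks at its receptor on the ER and hands them to the SEC61 channel of the translocon. Signal peptidase removes the signal peptide inside the ER. Folded cargo then leaves in COPII-coated vesicles, with the help of cargo receptors and p24 proteins, while COPI-coated vesicles return escaped residents and machinery from the Golgi. In many cells the factors XBP1 and ATF6 raise genes of this route when unfolded protein gathers in the ER.

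The cells were MDA-MB-231, an established human triple-negative breast cancer line, grown in DMEM with L-glutamine, serum and antibiotics. Treated cells were given 0.5 µM EMD37 and control cells the vehicle DMSO, each for 12 h or 24 h, and the series asks about ER stress in cells given EMD37. Each of the 4 groups had 2 libraries, marked A and B. The labels did not say whether A and B were separate cultures, so the p-values capture only how far libraries of a group lie apart, which may be technical, and all libraries came from a single cell line.

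Between 8.995 M and 11.44 M reads (M for mega) were counted in each library, and the log-scale correlation between A and B was 0.988 to 0.992. The 6 markers of the line (VIM, CD44, LGALS1, MSN, CAV1 and AXL) summed to 6628 to 7618 CPM (reads of a gene per M reads of its library) in vehicle and in EMD37 at 12 h, and to 5814 and 6075 CPM in EMD37 at 24 h. There CAV1 (log2 -0.72), LGALS1 (-0.48), CD44 (-0.39) and AXL (-0.35) were called lower, and the part of this in the members' changes was not tested. The 8 luminal or epithelial markers summed to 267 to 346 CPM, of which KRT18 alone had 258 to 336 CPM and CDH1 and EPCAM were near 0, whereas 4 leukocyte markers summed to 0.676 to 2.05 CPM and 5 fibroblast markers to 2.03 to 5.02 CPM. HSPA5, the ER chaperone that marks ER stress, was higher with EMD37 by log2 3.42 at 12 h and 2.81 at 24 h. Levels below are CPM scaled by TMM, changes are log2 ratios of EMD37 to vehicle with the standard error (SE) of the fit, and a gene was called at a p below 0.05 in the quasi-likelihood test of edgeR, after Benjamini-Hochberg adjustment over the 14850 genes tested. All 54 members passed the filter on low counts. As these were bulk samples, fewer cells of a kind and less RNA per cell cannot be told apart.

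More genes of the route were higher than lower with EMD37 at both times, and more of them at 24 h than at 12 h. At 12 h, 24 of the 54 members were called higher and 1 lower, where 5.27% of all tested genes were called higher and 3.43% lower. At 24 h, 37 were called higher and 2 lower, against 19.6% and 21.1% of all tested genes. The median change of the members was log2 0.27 at 12 h and 0.55 at 24 h, while that of all tested genes was -0.01 and -0.03. Scaling by total counts moved the split over all genes from 782 higher and 510 lower to 680 and 790 at 12 h, and from 2916 and 3128 to 2358 and 3942 at 24 h. Among the members it gave 23 higher and 1 lower at 12 h, and 33 and 4 at 24 h.

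The reads of the 54 genes together came to 10940 and 10665 CPM in vehicle at 12 h and to 12153 and 12435 CPM with EMD37. At 24 h the sums were 10307 and 10045 CPM in vehicle and 13879 and 15029 CPM with EMD37. Both sums with EMD37 lay above both vehicle sums at each time, and the same held for the sums of each of the 6 machines.

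Of the members, 20 were called higher at both times, 17 at 24 h only, and 4 at 12 h only. TRAM2 was called lower at both times and SEC11A at 24 h, and 11 members were called at neither time. Those 11 were SRP9, SRP14, SRP68, SEC61A2, SPCS1, SEC24B, SAR1A, SAR1B, TMED3, MCFD2 and COPB1. Many calls at 12 h were lost when a 12 h library was left out, and fewer genes were then also called over all tested genes. The members' median change was log2 0.23 to 0.32 in these fits, beside 0.27 in the full one. Only SEC11C, SEC24A, SEC24D, TMED5 and TMED7 kept their 12 h call when each of the 8 libraries was left out in turn. At 24 h, 29 of the 39 calls remained. No change reversed its direction in any alternative among the called members. For the calls at 12 h and 24 h, omitting a library could hardly do so, as the groups of each called member did not overlap.

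**Figure D1:**
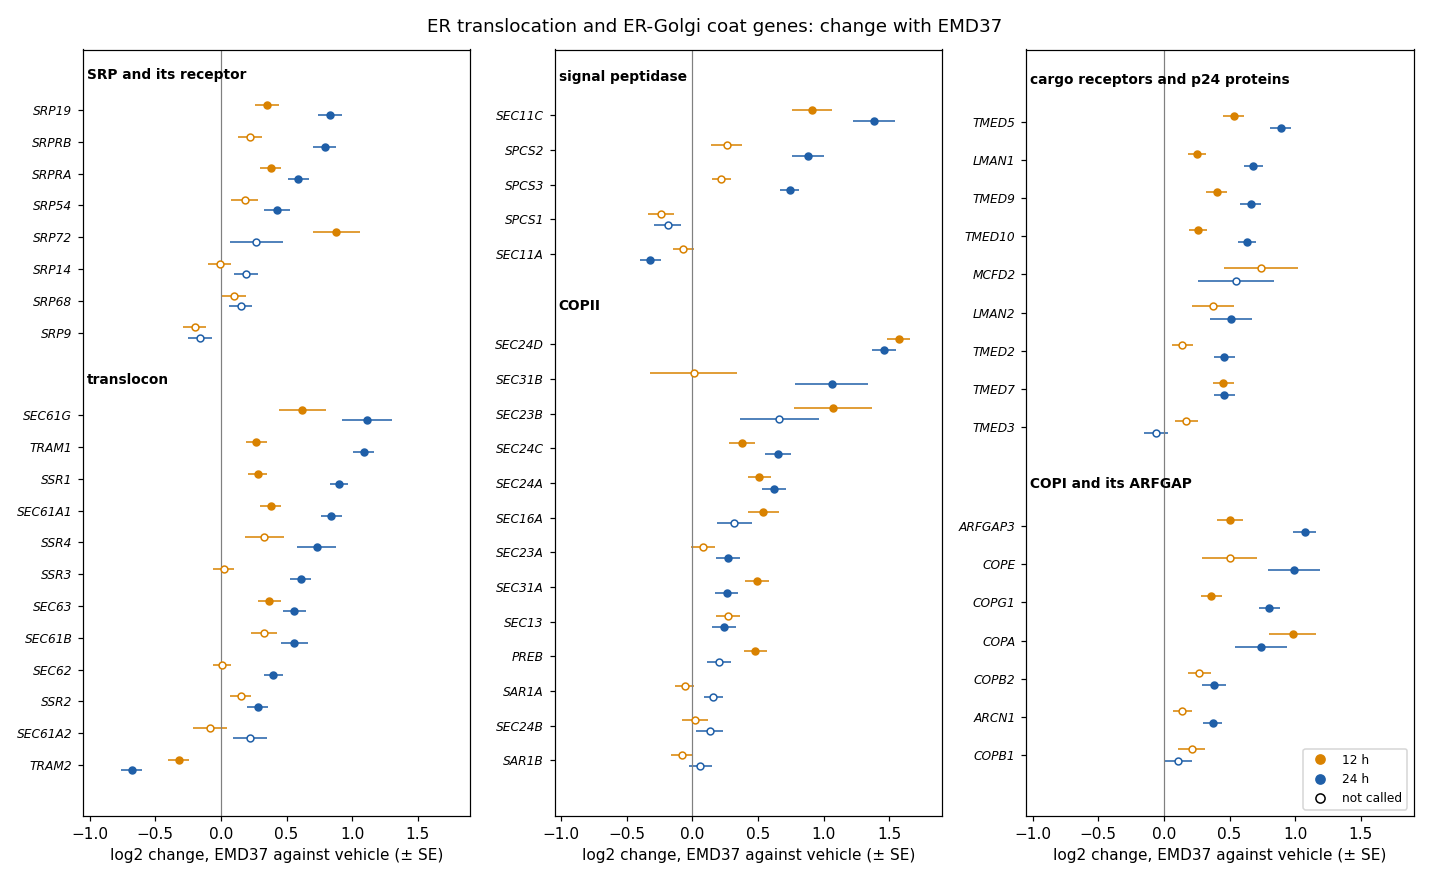
Change of each of the 54 genes with EMD37 against vehicle at 12 h (orange) and 24 h (blue), on a log2 scale (x axis), grouped by machine and ordered by the 24 h change. Points are estimates over 2 libraries per group, bars are the SE of the fit and open points were not called: blue points lie right of orange ones in most of the translocon, while SEC24D stands at 1.57 and 1.46, and TRAM2 (-0.68) and SEC11A (-0.32) are the members called lower at 24 h.

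Among the SRP and receptor genes, 3 of 8 were called higher at 12 h and 4 of 8 at 24 h, with medians of log2 0.20 and 0.35. SRP19, which helps the particle's RNA fold so that SRP54 can bind (ENSG00000153037, hg38 chromosome 5, 112861188 to 112898371), stood at 69.7 and 73.7 CPM in vehicle and 92.4 and 90.4 CPM with EMD37 at 12 h. Its 24 h levels were 69.9 and 61.4 CPM in vehicle and 115 and 119 CPM with EMD37. EMD37 libraries were above vehicle at both times, by 1.27-fold at 12 h (log2 0.35, SE 0.09, adjusted p = 0.0163) and 1.78-fold at 24 h (log2 0.83, SE 0.09, adjusted p = 1e-06). SRP19 lost its 12 h call without each 12 h library in turn (adjusted p 0.09 to 0.183), and 18.2% of its exon bases lie in other genes.

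SRP72, a large scaffold subunit, had 54 to 121 reads per library. It read 6.2 and 6.33 CPM in vehicle and 11.2 and 11.9 CPM with EMD37 at 12 h, then 5.46 and 5.82 CPM against 6.97 and 6.66 CPM at 24 h. The groups did not overlap at either time, and SRP72 was called at 12 h (log2 0.88, SE 0.18, adjusted p = 0.00485) but not at 24 h (log2 0.27, SE 0.20, adjusted p = 0.295). The difference between these effects was not called (adjusted p = 0.145), and the 12 h call was lost without library B of EMD37 at 12 h (adjusted p = 0.0611).

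SRPRB, the membrane-anchored subunit of the receptor, counted 187 and 162 CPM in vehicle and 188 and 217 CPM with EMD37 at 12 h. At 24 h it counted 160 and 140 CPM in vehicle and 252 and 266 CPM with EMD37. The groups lay side by side at 12 h (log2 0.22, SE 0.09, adjusted p = 0.178) and stood apart at 24 h, by 1.73-fold (log2 0.79, SE 0.09, adjusted p = 4.98e-06). Reads of SRPRB are uncertain in part, as 21.1% of its exon bases lie in other genes and the kit did not mark the strand. SRPRA, the subunit that binds SRP, rose by log2 0.38 at 12 h and 0.59 at 24 h. Its 12 h call was lost without library A or B of vehicle or B of EMD37 at that time (adjusted p 0.0617 to 0.167). SRP54, the GTPase that binds signal peptides, rose at 24 h by log2 0.43, a call lost without library B of EMD37 at 24 h (adjusted p = 0.0679).

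SRP9 and SRP14, which bind the Alu part of the SRP RNA and slow elongation, and SRP68, the partner of SRP72, were called at neither time. Their 24 h changes were log2 -0.16 (SE 0.09), 0.19 (SE 0.09) and 0.15 (SE 0.09). The RNA of the particle, read as RN7SL1, took 4.85% to 7.57% of the reads in the 8 libraries. Vehicle at 24 h alone gave 4.85% and 7.19%, and RN7SL2 was not matched. How far the library preparation captures this RNA was not tested. In a fit that added reads recovered from the normalized table, RN7SL1 differed by log2 -0.07 (SE 0.15, adjusted p = 0.848) at 12 h and 0.26 (SE 0.15, adjusted p = 0.197) at 24 h.

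In the translocon, 10 of 12 genes were called higher and 1 lower at 24 h (median log2 0.59), after 5 higher and 1 lower at 12 h (median 0.27). TRAM1, which helps some nascent chains cross the membrane, had 616 and 587 CPM in vehicle and 738 and 708 CPM with EMD37 at 12 h. By 24 h it had 592 and 571 CPM in vehicle and 1175 and 1308 CPM with EMD37. TRAM1 was above vehicle at both times, by 1.2-fold at 12 h (log2 0.27, SE 0.08, adjusted p = 0.0441) and 2.14-fold at 24 h (log2 1.09, SE 0.08, adjusted p = 1.45e-08). Its 12 h call was lost without each 12 h library in turn (adjusted p 0.177 to 0.308), without library A of EMD37 at 24 h (0.0568), with RLE size factors (0.068), with recovered reads added (0.0675) and with no low-count filter (0.0769).

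TRAM2, the paralog known for its part in collagen synthesis, went the other way. It measured 572 and 609 CPM in vehicle against 458 and 486 CPM with EMD37 at 12 h. The 24 h levels of TRAM2 were 480 and 561 CPM in vehicle and 330 and 319 CPM with EMD37. TRAM2 was below vehicle without overlap, by log2 -0.32 at 12 h (SE 0.08, adjusted p = 0.0223) and -0.68 at 24 h (SE 0.08, adjusted p = 7.2e-06). TRAM2 lost its 12 h call without each 12 h library in turn (adjusted p 0.0833 to 0.223). TRAM2 and SEC11A are named because few members were lower, a choice made after their values were seen.

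The SSR genes encode the TRAP complex, which sits beside the channel and helps certain signal sequences open it. SSR1 (ENSG00000124783, chromosome 6, 7268306 to 7347446) read 396 and 406 CPM in vehicle and 479 and 498 CPM with EMD37 at 12 h. At 24 h SSR1 read 363 and 345 CPM in vehicle and 632 and 691 CPM with EMD37. SSR1 libraries with EMD37 were the higher ones at both times, by log2 0.28 (SE 0.07, adjusted p = 0.0269) and then 0.90 (SE 0.07, adjusted p = 9.28e-08). Its 12 h call was lost without each 12 h library in turn (adjusted p 0.12 to 0.272) and with no low-count filter (0.0597).

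SSR3, the TRAP gene with the most reads, had 1056 and 1062 CPM in vehicle and 1095 and 1055 CPM with EMD37 at 12 h. Those groups overlapped, at log2 0.02 (SE 0.08, adjusted p = 0.911). At 24 h SSR3 had 883 and 886 CPM in vehicle against 1277 and 1427 CPM with EMD37, a 1.53-fold rise (log2 0.61, SE 0.08, adjusted p = 9.32e-06). SSR2 and SSR4 rose at 24 h by log2 0.28 and 0.73 and were not called at 12 h (0.15 and 0.33). The SSR2 call was lost without library B of EMD37 at 24 h (adjusted p = 0.0921).

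The channel itself is built from SEC61 alpha, beta and gamma subunits. SEC61A1, the main alpha subunit and the pore, rose by log2 0.38 at 12 h and 0.84 at 24 h (SE 0.08 each), and SEC61B rose at 24 h by log2 0.56 (SE 0.10). SEC61A2, the less abundant alpha paralog, was called at neither time (log2 -0.08 and 0.22, SE 0.13 each). SEC61A1 lost its 12 h call without library A or B of vehicle or B of EMD37 at 12 h (adjusted p 0.0636 to 0.166).

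SEC61G, the gamma subunit, had only 72 to 206 reads per library. Its levels were 9.86 and 10.7 CPM in vehicle and 15 and 16.6 CPM with EMD37 at 12 h, and 8.24 and 7.76 CPM against 14.6 and 19.9 CPM at 24 h. SEC61G was higher with EMD37 in every library at both times, by log2 0.62 (SE 0.18, adjusted p = 0.0392) and 1.11 (SE 0.19, adjusted p = 0.000144). SEC61G lost its 12 h call without each 12 h library (adjusted p 0.127 to 0.261) and in DESeq2 (0.0817). SEC62 and SEC63, which join the channel for short or weakly hydrophobic substrates and recruit HSPA5, rose at 24 h by log2 0.40 and 0.56. At 12 h SEC63 rose by log2 0.37 and SEC62 stood at 0.01. SEC63 lost its 12 h call without each 12 h library in turn (adjusted p 0.0801 to 0.139).

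The signal peptidase had 1 of 5 genes called higher at 12 h, and 3 higher and 1 lower at 24 h (medians log2 0.22 and 0.74). SEC11C, one of its alternative catalytic subunits (ENSG00000166562, chromosome 18, 59139477 to 59158836), was measured at 17.9 and 17.4 CPM in vehicle and 31.6 and 34.7 CPM with EMD37 at 12 h. At 24 h it was 12.6 and 11.4 CPM in vehicle and 26.8 and 35.8 CPM with EMD37. SEC11C libraries with EMD37 were above vehicle throughout, by 1.88-fold (log2 0.91, SE 0.15, adjusted p = 0.000638) and 2.61-fold (log2 1.38, SE 0.16, adjusted p = 2.79e-06). The mean of SEC11C with EMD37 was 33.2 CPM at 12 h and 31.3 CPM at 24 h, while that of vehicle was 17.7 and 12 CPM. The difference between the 2 effects was not called in edgeR (adjusted p = 0.153). SEC11A, the other catalytic subunit, gave 82 and 84.7 CPM in vehicle and 81.1 and 77.2 CPM with EMD37 at 12 h, then 86.6 and 85.4 CPM against 68.6 and 69.6 CPM at 24 h. SEC11A fell at 24 h (log2 -0.32, SE 0.08, adjusted p = 0.005), a call lost without library A of EMD37 at 24 h (adjusted p = 0.0591), and its 12 h change was log2 -0.07.

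SPCS2, an accessory subunit, held 30.8 and 27.9 CPM in vehicle and 35.4 and 34.8 CPM with EMD37 at 12 h, and 24.2 and 23.3 CPM against 41.3 and 46.1 CPM at 24 h. SPCS3, a subunit needed for the enzyme's activity, held 483 and 461 CPM against 561 and 536 CPM at 12 h, and 411 and 412 CPM against 668 and 708 CPM at 24 h. Neither was called at 12 h (adjusted p = 0.19 and 0.0788), although their groups did not overlap. At 24 h SPCS2 rose by log2 0.88 (SE 0.12, adjusted p = 1.56e-05) and SPCS3 by 0.74 (SE 0.07, adjusted p = 6.02e-07). SPCS1, the remaining subunit, was called at neither time (log2 -0.24 and -0.19), and 58.1% of its exon bases lie in other genes, so its reads are uncertain.

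**Figure D2:**
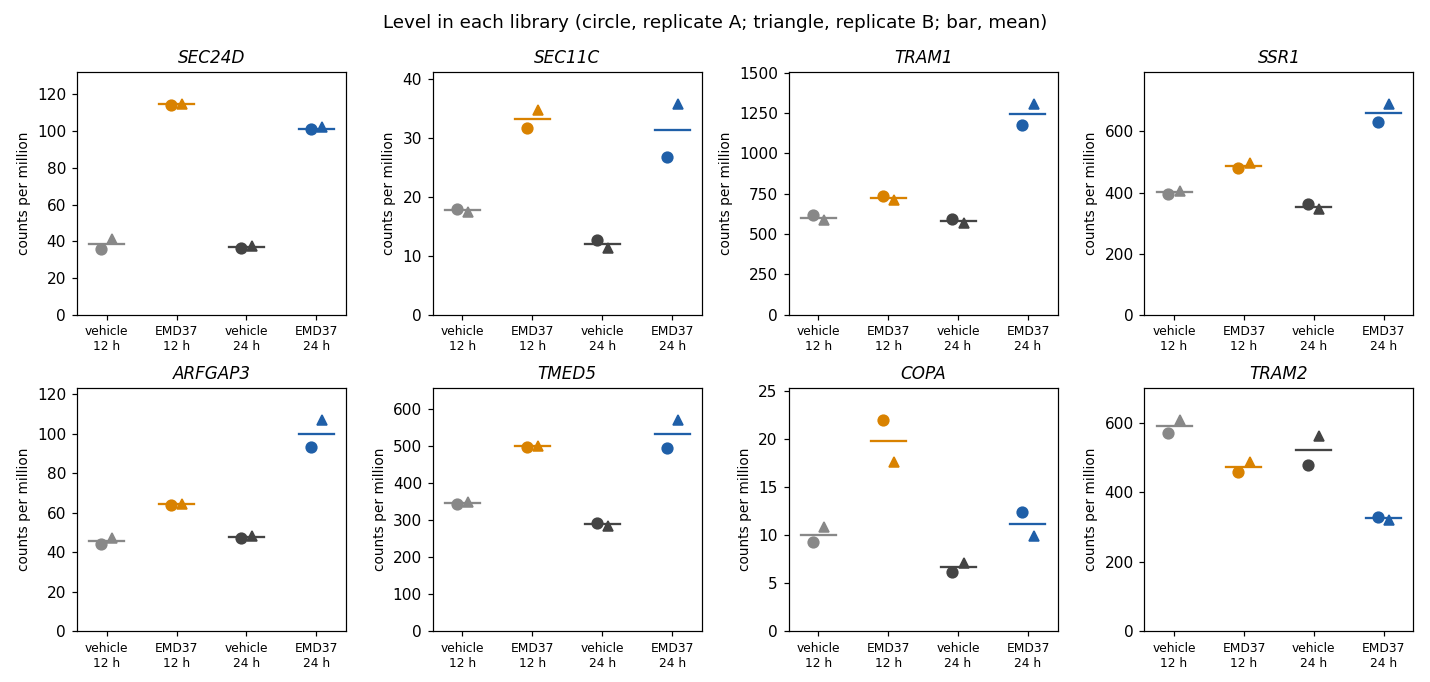
Level of 8 members in each of the 8 libraries, in CPM on linear axes that start at 0 (circles, library A; triangles, library B; bars, group means). SEC24D is at 36 to 41.1 CPM in all 4 vehicle libraries and at 101 to 115 CPM in all 4 EMD37 libraries, TRAM1 separates mainly at 24 h, and TRAM2 is lower with EMD37.

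The COPII coat had 7 of 13 genes called higher at each time, with medians of log2 0.38 at 12 h and 0.27 at 24 h. SEC24D, one of 4 SEC24 paralogs that select cargo for the coat (ENSG00000150961, chromosome 4, 118722823 to 118838683), had the largest change of all members at both times. Its level was 36 and 41.1 CPM in vehicle and 114 and 115 CPM with EMD37 at 12 h, and 36.2 and 37.4 CPM against 101 and 102 CPM at 24 h. SEC24D was thus 2.96-fold higher at 12 h (log2 1.57, SE 0.09, adjusted p = 3.54e-09) and 2.76-fold higher at 24 h (log2 1.46, SE 0.09, adjusted p = 2.67e-09). SEC24A counted 64.6 and 61.5 CPM against 88.6 and 90.9 CPM at 12 h, and 53.9 and 51.6 CPM against 75.7 and 86.4 CPM at 24 h. SEC24A rose by log2 0.51 (SE 0.09, adjusted p = 0.00128) and 0.62 (SE 0.09, adjusted p = 4.76e-05), with no overlap between groups.

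SEC24C, a further paralog, rose by log2 0.38 and 0.65. However, 42.9% of its exon bases lie in another gene, and the 12 h call was lost without each 12 h library in turn (adjusted p 0.0623 to 0.282). SEC24B was called at neither time (log2 0.02 and 0.13, SE 0.10 each). SEC23A and SEC23B encode the GTPase-activating partner of SEC24. SEC23A rose at 24 h alone (log2 0.27, SE 0.09, adjusted p = 0.028), a call lost without library A of EMD37 at 12 h (0.0542), B of vehicle at 24 h (0.126) or B of EMD37 at 24 h (0.302, at log2 0.15), with total count scaling (0.0933) and in a fit of only the 4 libraries compared (0.071).

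SEC23B had only 28 to 73 reads per library. It read 2.85 and 3.25 CPM in vehicle and 6.73 and 6.17 CPM with EMD37 at 12 h, and 3.52 and 3.66 CPM against 7.71 and 3.76 CPM at 24 h. Library B of EMD37 at 24 h lay close to the vehicle libraries. SEC23B was called at 12 h (log2 1.07, SE 0.30, adjusted p = 0.0337) and not at 24 h (log2 0.66, SE 0.30, adjusted p = 0.0896). The 12 h call was lost without each 12 h library (adjusted p 0.114 to 0.208), in DESeq2 (0.0669) and with total count scaling (0.054).

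The outer coat is a cage of SEC13 and SEC31. SEC31A, its main long subunit, rose by log2 0.49 at 12 h (adjusted p = 0.00164) and 0.26 at 24 h (adjusted p = 0.0261). The first call was lost without library B of vehicle at 12 h (adjusted p = 0.0505) and the second without library B of either 24 h group (0.24 and 0.221), with total count scaling (0.0976), with no low-count filter (0.0533) and with only the 4 libraries compared (0.0745). The 24 h change of SEC31A was log2 0.41 without library A and 0.16 without library B of vehicle at 24 h. SEC31B, the scarcer paralog, had 21 to 92 reads per library. It gave 2.13 and 3.85 CPM in vehicle and 3.78 and 2.29 CPM with EMD37 at 12 h, which overlapped, and 3.79 and 3.88 CPM against 7.07 and 8.88 CPM at 24 h. SEC31B rose at 24 h (log2 1.06, SE 0.28, adjusted p = 0.0062), a call lost without library B of EMD37 at 24 h (adjusted p = 0.0767), and 18.4% of its exon bases lie in another gene.

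SEC13 rose at 24 h by log2 0.24 (SE 0.09, adjusted p = 0.0371), at nearly the size of its uncalled 12 h change (0.27, adjusted p = 0.0689). That 24 h call was lost in DESeq2 (adjusted p = 0.0518), with total count scaling (0.129, at log2 0.15), with no low-count filter (0.0731) and with only the 4 libraries compared (0.0562). Omitting library A of EMD37 at 12 h (0.0501), B of vehicle at 24 h (0.117) or A or B of EMD37 at 24 h (0.0576 and 0.206) ended it as well. SEC16A, the scaffold of ER exit sites, measured 55.6 and 59.8 CPM against 80.8 and 86.9 CPM at 12 h, and 48.8 and 68.7 CPM against 77.3 and 69 CPM at 24 h. SEC16A rose at 12 h (log2 0.54, SE 0.12, adjusted p = 0.0114) and missed the threshold at 24 h (log2 0.32, SE 0.13, adjusted p = 0.0525). Its 12 h call was lost without library A of vehicle, A of EMD37 or B of EMD37 at that time (adjusted p 0.07 to 0.126).

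PREB, the exchange factor that loads SAR1 with GTP, likewise rose at 12 h (log2 0.48, SE 0.09, adjusted p = 0.00316) and was not called at 24 h (log2 0.20, adjusted p = 0.104). The 12 h call was lost without library A of vehicle (adjusted p = 0.0581) or B of EMD37 (0.0922) at 12 h. For PREB, SEC16A, SEC23B and SRP72, the 4 members called at 12 h only, the difference between the 2 effects was not called (adjusted p = 0.167, 0.452, 0.57 and 0.145). SAR1A and SAR1B, the GTPases that start coat assembly, were called at neither time. Their changes ran from log2 -0.08 to 0.16.

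All 9 cargo receptor and p24 genes had estimates above 0 at 12 h, where 5 were called higher (median log2 0.37), and 7 were called higher at 24 h (median 0.55). TMED5, a p24 protein (ENSG00000117500, chromosome 1, 93149742 to 93180728), read 343 and 348 CPM in vehicle and 498 and 501 CPM with EMD37 at 12 h. At 24 h it read 291 and 285 CPM in vehicle and 494 and 571 CPM with EMD37. TMED5 was the higher with EMD37 in every library, by 1.45-fold (log2 0.53, SE 0.08, adjusted p = 0.000248) and 1.85-fold (log2 0.89, SE 0.08, adjusted p = 1.95e-07).

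The other p24 proteins moved less. TMED7 rose by log2 0.45 and 0.46, TMED9 by 0.40 and 0.66, and TMED10 by 0.26 and 0.63, at 12 h and 24 h in turn. TMED9 lost its 12 h call without library A of vehicle (adjusted p = 0.0884) or B of EMD37 (0.122) at 12 h. That of TMED10 was lost without each 12 h library (adjusted p 0.079 to 0.42), without library A of EMD37 at 24 h (0.0633), with RLE size factors (0.0594), with recovered reads added (0.0612) and with no low-count filter (0.104). Of TMED7, 24% of the exon bases lie in other genes, among them a read-through transcript that shares its exons. TMED2, the p24 gene with the most reads, rose at 24 h by log2 0.46 (SE 0.08), and TMED3 was called at neither time (log2 0.17 and -0.06).

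LMAN1, the lectin that carries glycoproteins such as coagulation factors out of the ER, rose by log2 0.25 at 12 h and 0.68 at 24 h. Its 12 h call (adjusted p = 0.0473) was lost without each 12 h library (0.187 to 0.324), without library A of EMD37 at 24 h (0.0634), with RLE size factors (0.0728), with recovered reads added (0.0731) and with no low-count filter (0.109). MCFD2, the soluble partner of LMAN1, had 26 to 55 reads per library and was not called (log2 0.74, SE 0.28, adjusted p = 0.117 at 12 h, and log2 0.55, SE 0.29, adjusted p = 0.142 at 24 h). Its 4 libraries with EMD37, at 3.7 to 5.47 CPM, lay above those with vehicle, at 2.41 to 3.55 CPM. LMAN2, a related lectin, rose at 24 h (log2 0.51, SE 0.16, adjusted p = 0.0155). That call was lost without library A of vehicle at 24 h, which left log2 0.24 (0.111), without B of EMD37 at 24 h (0.088), and with total count scaling (0.0573), and the change was log2 0.89 without library B of vehicle at 24 h.

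All 7 COPI genes had estimates above 0 at both times. At 12 h, 3 were called higher (median log2 0.36), and at 24 h 6 were (median 0.74). ARFGAP3, which triggers GTP hydrolysis by ARF1 on the coat (ENSG00000242247, chromosome 22, 42796502 to 42858106), had 44 and 46.9 CPM in vehicle and 63.8 and 64.5 CPM with EMD37 at 12 h. Its 24 h levels were 47.1 and 48.3 CPM in vehicle and 93.1 and 107 CPM with EMD37. ARFGAP3 stood above vehicle at both times, by 1.41-fold (log2 0.50, SE 0.10, adjusted p = 0.00277) and 2.1-fold (log2 1.07, SE 0.09, adjusted p = 1.62e-07). ARFGAP3 lost its 12 h call without library A of vehicle at 12 h (adjusted p = 0.0504).

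COPA, the alpha subunit of the cage (ENSG00000122218, chromosome 1, 160288686 to 160343400), had 66 to 239 reads per library. It gave 9.25 and 10.8 CPM in vehicle and 22 and 17.6 CPM with EMD37 at 12 h, and 6.2 and 7.11 CPM against 12.4 and 9.94 CPM at 24 h. The groups did not overlap, and COPA rose by log2 0.98 (SE 0.18, adjusted p = 0.00168) and 0.74 (SE 0.20, adjusted p = 0.00718). Each call was lost without library A of EMD37 at the same time (adjusted p = 0.0613 at 12 h and 0.0696 at 24 h).

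COPE, the epsilon subunit, had 98 to 246 reads per library. Its levels were 9.96 and 11.9 CPM in vehicle and 14 and 17.1 CPM with EMD37 at 12 h, and 9.16 and 15.7 CPM against 26 and 23 CPM at 24 h. COPE was not called at 12 h (log2 0.50, SE 0.21, adjusted p = 0.168) and rose 1.98-fold at 24 h (log2 0.99, SE 0.20, adjusted p = 0.00101). COPG1, of the adaptor part of the coat, rose at both times (log2 0.36 and 0.80). Its 12 h call was lost without each 12 h library in turn (adjusted p 0.0524 to 0.0983). ARCN1, the delta subunit, and COPB2, a cage subunit, rose at 24 h by log2 0.37 and 0.38. The COPB2 call was lost without library B of EMD37 at 24 h (adjusted p = 0.078). COPB1, the beta subunit, was called at neither time (log2 0.21 and 0.11, SE 0.10 each).

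The treatment effect grew between the times for 14 members and moved further below 0 for TRAM2. The test was of the difference between the effects, each against its own vehicle. A called difference can thus include a change of vehicle between the times. Among these members that change ran from log2 -0.30 in SPCS2 to 0.07 in ARFGAP3. Of all tested genes, 7.96% were called with a higher and 7.94% with a lower effect at 24 h. The median difference was log2 0.22 over the members and -0.04 over all tested genes. By machine, 5 translocon genes, 3 cargo receptor and p24 genes and 2 each of SRP, signal peptidase and COPI had a called growth. None of the 13 COPII genes had a called difference in edgeR or DESeq2. At an unadjusted p below 0.05 there were 2 COPII genes with a higher effect at 24 h and 1 with a lower one. All tested genes were not counted at that threshold. That the machines differ in this respect was not tested.

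TRAM1 showed the largest of the called differences, at log2 0.83 (SE 0.11, adjusted p = 9.08e-05). By p, SSR1 came next at log2 0.62 (SE 0.11, adjusted p = 0.000866), then SSR3 at 0.59 (SE 0.11, adjusted p = 0.00152) and SPCS3 at 0.52 (SE 0.10, adjusted p = 0.00246). These 4 calls remained when each library was left out in turn. SRPRB (0.57, adjusted p = 0.00765) lost its call without library A of either 12 h group (0.0618 and 0.0683). ARFGAP3 (0.57, adjusted p = 0.00795) lost it without library B of EMD37 at 24 h (0.0584).

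Few members were called for a change with time in vehicle, although some estimates were as large as called effects of EMD37. Comparing vehicle at 24 h with vehicle at 12 h, 0 members were called higher and 1 lower in edgeR, where 2.75% and 3.25% of all tested genes were called. DESeq2 called 0 and 3 members, and 308 higher and 443 lower of all tested genes. At an unadjusted p below 0.05 in edgeR, 3 members were higher and 14 lower. All tested genes were not counted at that threshold, so these 2 counts have no background. The 1 call was SEC63, at 73.9 and 72.4 CPM in vehicle at 12 h and 55.6 and 58.4 CPM at 24 h, which is named for being the single call. It was lost without either vehicle library of 12 h (adjusted p 0.233 and 0.114) or either EMD37 library of 12 h (0.0653 and 0.0688), and with only the 4 libraries compared (0.103). The largest estimates in vehicle were log2 -0.60 (SE 0.20, adjusted p = 0.0896) for COPA, -0.55 (SE 0.16, adjusted p = 0.0549) for SEC11C, and -0.36 for SEC63 and for SEC61G (SE 0.19, adjusted p = 0.275). SEC24C had the largest estimate above 0, log2 0.35 (SE 0.10, adjusted p = 0.0517). The median change over the members was log2 -0.05, and alternatives called up to 8 members lower. The fit with 8 called 924 of all tested genes lower, beside 482 in the main fit.

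Several members are alternative forms of the same subunit, and the balance of some pairs was different with EMD37 while that of others overlapped. Levels of different genes were compared per kilobase of exon, and these ratios have no test. The ratio of TRAM1 to TRAM2 was 1.92 and 1.72 in vehicle and 2.87 and 2.59 with EMD37 at 12 h. At 24 h the TRAM ratio was 2.2 and 1.81 in vehicle and 6.35 and 7.29 with EMD37. Every library with EMD37 thus had a higher ratio than every vehicle library. SEC11C relative to SEC11A was 0.278 and 0.262 against 0.497 and 0.573 at 12 h, and 0.185 and 0.17 against 0.498 and 0.656 at 24 h. SEC11A remained the more abundant catalytic form in all 8 libraries.

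Within the SEC24 family, SEC24D made up 12.6% and 14.3% of the summed level per length in vehicle at 12 h and 27.4% and 26.6% with EMD37. At 24 h its share was 12.7% and 12.9% in vehicle and 23.2% and 21.4% with EMD37. SEC24B, which was not called, went from 29.3% and 28.2% to 19.9% and 19.4% of the family at 12 h, and from 27.2% and 26.6% to 18.7% and 18.4% at 24 h. SEC24D was the scarcest of the 4 paralogs in every vehicle library. Relative to SEC24B it passed from 0.43 and 0.505 to 1.37 and 1.37 at 12 h, and from 0.466 and 0.484 to 1.24 and 1.16 at 24 h. With EMD37, SEC24D stayed below SEC24A, at 0.934 and 0.921 of it at 12 h and 0.969 and 0.856 at 24 h. Relative to SEC24C it was 1.17 and 1.05 with EMD37 at 12 h, and 0.677 and 0.607 at 24 h. The family shares include SEC24C, of which 42.9% of the exon bases lie in another gene. SEC61A2 was scarce beside SEC61A1, at 0.0725 to 0.0917 of it in vehicle and 0.053 to 0.0584 with EMD37.

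The pairs left showed no such separation at one or both times. SAR1B relative to SAR1A was 0.0914 and 0.0999 in vehicle and 0.0942 and 0.0943 with EMD37 at 12 h, and 0.0848 and 0.0842 against 0.0776 and 0.0793 at 24 h. SEC31B relative to SEC31A overlapped at 12 h, at 0.0246 and 0.0471 against 0.0322 and 0.0193, and was 0.0444 and 0.053 against 0.078 and 0.0888 at 24 h. SEC23B relative to SEC23A was 0.0173 and 0.0228 against 0.0407 and 0.0389 at 12 h. At 24 h it overlapped, at 0.022 and 0.0256 against 0.0456 and 0.0192. Both SEC23B and SEC31B had few reads, and whether they are truly this scarce was not tested.

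**Figure D3:**
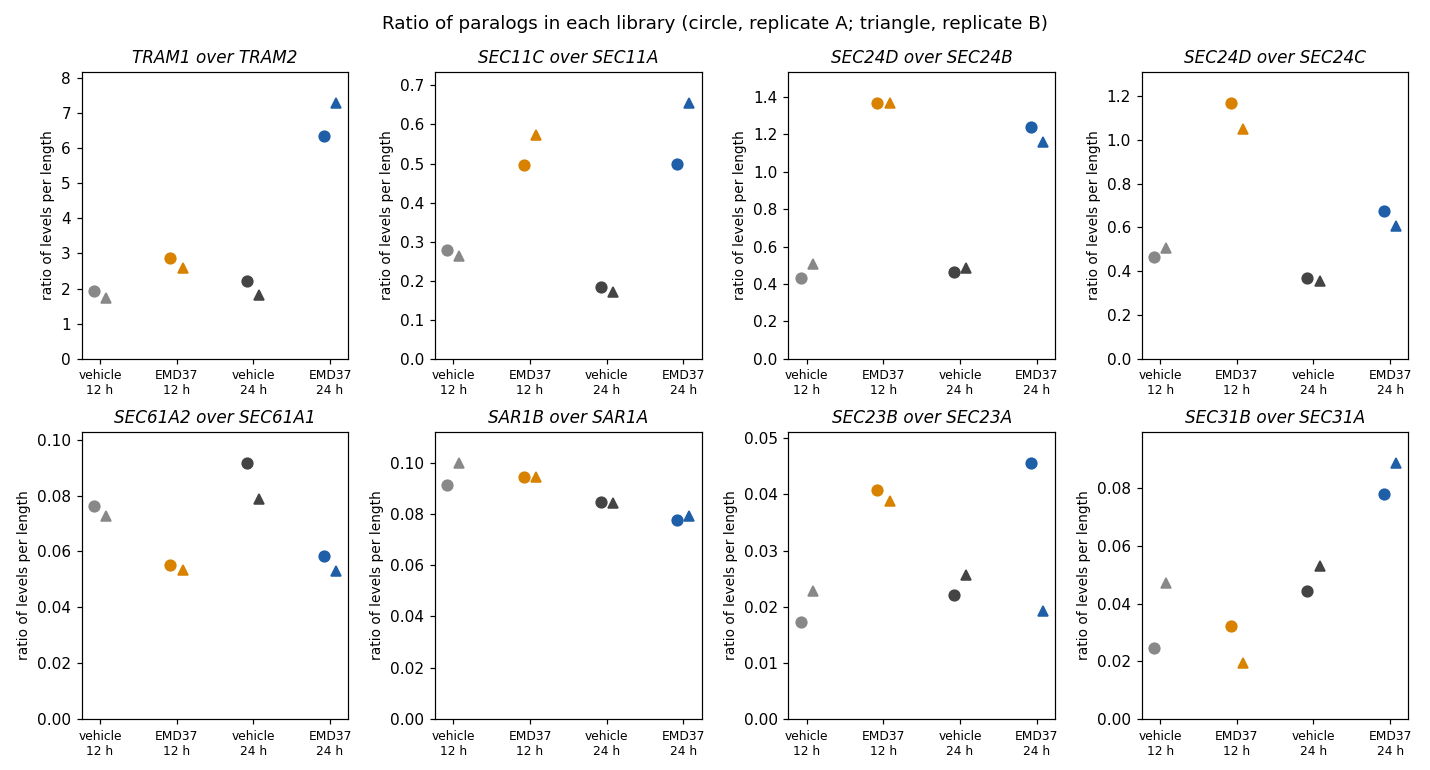
Ratio of levels per kilobase of exon between 8 pairs of paralogs in each of the 8 libraries (y axes start at 0; circles, library A; triangles, library B). TRAM1 over TRAM2, SEC11C over SEC11A and SEC24D over SEC24B are higher in all 4 EMD37 libraries than in all 4 vehicle libraries, and SEC61A2 over SEC61A1 is lower, while SAR1B over SAR1A and SEC31B over SEC31A overlap at 12 h and SEC23B over SEC23A at 24 h.

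Per kilobase of exon, the members differed widely in level. Means over the 8 libraries were 248 CPM per kilobase for TMED2, 236 for SRP9 and SSR3, and 203 for TRAM1. At the low end were SEC31B at 0.562, MCFD2 at 0.639, SEC23B at 1.07, SRP72 at 1.18 and COPA at 1.54. Partners in 1 complex were far apart: SRP68 was at 10.7 beside SRP72, and COPB1 and ARCN1 at 34.2 and 115 beside COPA. Where a gene's reads are few, its fold rests on those few reads. How the counter handled multi-mapped or overlapping reads is not given. Whether the transcripts of these genes are truly this scarce was not tested.

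The 7 members with a mean below 20 CPM (a bound chosen after the values were seen) were COPA, COPE, MCFD2, SEC23B, SEC31B, SEC61G and SRP72. Their median change was log2 0.74 at 12 h and 0.74 at 24 h, while that of the 47 other members was 0.26 and 0.46. Over all tested genes the medians below that bound were 0.03 and -0.05, and at or above it -0.02 at both times. The part of the read level in these changes was not tested.

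The start regions of the members were searched for short sequences known to bind the factors of the ER stress response. RefSeq windows from 250 bases before to 50 after the gene start (GRCh38.p14) were at hand for 49 members, and both strands were read. The letters TGACGTGG, the core of a site bound by XBP1 and ATF6, were found in 10 of the 49 members (20.4%). They were found in 1.18% of the 10760 tested genes with a window and 0.927% of all 27305 genes with one. Among members called higher at both times that had a window, only COPA, SEC24A and SRP19 held TGACGTGG. The others, such as SSR1, ARFGAP3, TMED5 and SEC11C, did not. No window was at hand for SRPRA, TRAM1, SPCS1, SEC24D and TMED9.

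Of the 33 members called higher at 24 h that had a window, 8 held the core (24.2%), as did 4 of the 20 called higher at 12 h (20%) and 1 of the 10 called at neither time (10%). Sites of 7 members follow because they show the shared core in genes of all these kinds: COPA, SEC24A and SRP19 were called at both times, SEC16A at 12 h, SSR3 and SEC23A at 24 h, and COPB1 at neither. Each stretch is 30 bases with the core in capitals, read 5′ to 3′ on the strand where the core reads forward.
COPA: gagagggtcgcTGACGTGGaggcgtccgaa
SEC24A: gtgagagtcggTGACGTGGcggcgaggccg
SRP19: tctctagtctcTGACGTGGcatgaagactt
SEC16A: ttcagtccggcTGACGTGGcaccagggcca
SSR3: agtttccttgcTGACGTGGctgttatcaga
SEC23A: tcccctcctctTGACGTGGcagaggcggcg
COPB1: gagtccttggcTGACGTGGaagggggtggg

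The stretch of COPA is chr1:160343227-160343256 on the minus strand, that of SEC24A chr5:134648595-134648624 on the plus strand and that of SRP19 chr5:112861164-112861193 on the minus strand. SEC16A has chr9:136484707-136484736 on the plus strand, and SSR3 has chr3:156554148-156554177 on the plus strand. For SEC23A it is chr14:39103221-39103250 on the minus strand and for COPB1 chr11:14499841-14499870 on the plus strand. Relative to the RefSeq start, which can differ from that of GENCODE, the core of COPA began 5 bases after and that of SEC16A 15 bases after. The others began before it, by 4 bases in SEC23A, 41 in SSR3, 48 in COPB1, 112 in SRP19 and 179 in SEC24A. COPB2, called at 24 h, held the core at 2 places, and SEC62 and SSR4, also called at 24 h, at 1 each.

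The shorter core ACGTG, which is contained in TGACGTGG, was found in 63.3% of the members with a window and 31.9% of the tested genes. It was in 75% of the members called higher at 12 h, 75.8% of those called higher at 24 h and 40% of those called at neither time. The ER stress element, CCAAT and CCACG with a gap of 9 bases, was in 0 of the 49 members and in 0.149% of the tested genes. The box CCAAT alone, which the ER stress element contains, was in 49% of the members and 43.1% of the tested genes. The composite site of ATF4 and CHOP, TGATGNAAT, was in 1 member, SRPRB, and in 0.79% of the tested genes. A match describes letters in a window and is not a measured site.

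**Figure D4:**
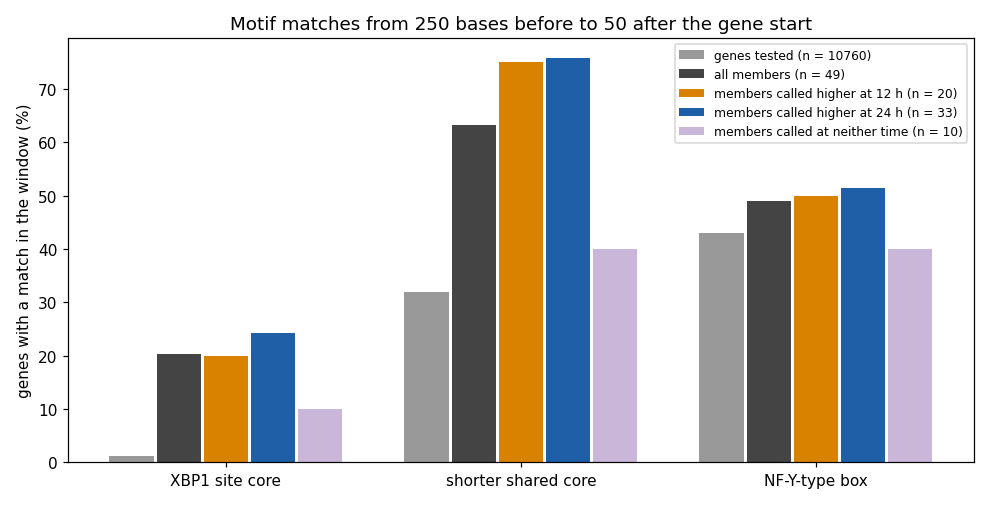
Share of genes (y axis, percent, from 0) with a match to each of 3 short sequences in the window around the RefSeq gene start, for the tested genes and for groups of the members (bars, with their number in the legend). The XBP1 core was in 20.4% of the members and 1.18% of the tested genes, the shorter core in 63.3% and 31.9%, and the NF-Y-type box, which is CCAAT, in 49% and 43.1%.

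Beyond the 54 members, a list of 82 other genes of the same route had 76 tested, of which 16 were called higher and 1 lower at 12 h (median log2 0.10), and 27 higher and 9 lower at 24 h (median 0.20). At 24 h the calls of its parts were 7 higher and 1 lower of 17 tested genes of membrane insertion (EMC, GET and others), 6 and 3 of 17 at COPII exit sites, 3 and 2 of 11 of COPI and ARF, 10 and 3 of 27 SNAREs and tethers, and 1 and 0 of 4 partners of the ribosome and translocon. These counts stand beside 5.27% higher and 3.43% lower of all tested genes at 12 h, and 19.6% higher and 21.1% lower at 24 h. At 12 h the largest called changes were in GOLGA2, the Golgi tether GM130 (log2 0.89), MIA3 and MIA2, which load large cargo at COPII sites (0.86 and 0.82), and STX5, a Golgi SNARE (0.76). At 24 h they were in BET1, an ER-to-Golgi SNARE (1.19), GOLGA2 (0.98), SCFD2 (-0.97) and MIA3 (0.96).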

How the data were processed

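RNA-seq of 8 MDA-MB-231 libraries was analysed. Per the labels' protocols, total RNA went through the TruSeq V2 kit, which does not mark strand. FastQC, STAR and DESeq2 on build hg38 appear in the submitters' processing notes; for their versions, the read counter and its handling of multi-mapped reads, details are not given in the sources used here. Read counts per gene (whole numbers) were deposited, and all tests were run on them. Normalized counts (signal) were deposited too and equal those reads divided by 1 size factor per library. The count table at hand ends within a line and holds all 54 members; reads of 6912 other genes were recovered from the normalized table (55296 of 55296 values whole within 0.01) for 1 alternative and RN7SL1.

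In edgeR 4.0.16 (R 4.3.3), filterByExpr (minimum count 10) kept 14850 genes. TMM scaling and 1 mean per group, with 4 residual degrees of freedom, gave a common dispersion of 0.00537. A gene was called where the quasi-likelihood test of edgeR gave a Benjamini-Hochberg adjusted p below 0.05. The procedure was tested on simulated data with 1 dispersion for all genes and 200 genes changed. Fewer genes changed there than were called here at 12 h or 24 h, so that test does not cover the setting of these data. Coordinates and union exon lengths came from GENCODE 29 (hg38), and promoter windows from RefSeq (GRCh38.p14). Depth was 8.995 M to 11.44 M reads (M for mega) per library, so a count of 3 was 0.262 to 0.334 CPM, a floor for counting error only.

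Members, lists and the naming rule were chosen with earlier results of these data known. Values in every library are given for members with the largest called changes at each time (10 each). They are also given for the 6 called interactions with the smallest p and the member with the smallest 24 h p in each machine. TRAM2 and SEC11A are given in every library too, and SEC63 in the vehicle libraries only. Alternatives were DESeq2 1.42.0, other scalings and filters, a replicate block, fits of 4 libraries, recovered reads and the omission of each library. A planned comparison of protein sequences was not made.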

Additional observations from a re-analysis of the deposited data

Results flagged for a closer look

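For 15 members the effect of EMD37 at 24 h differed from that at 12 h by edgeR's interaction test, with Benjamini-Hochberg adjustment over all 14850 genes. The difference, 24 h effect minus 12 h effect on the log2 scale, was 0.83 for TRAM1, 0.62 for SSR1, 0.62 for SPCS2, 0.59 for SSR3, 0.57 for SRPRB, 0.57 for ARFGAP3 and 0.52 for SPCS3. It was 0.48 for SRP19, 0.46 for SEC61A1, 0.44 for COPG1, 0.42 for LMAN1, 0.39 for SEC62, 0.37 for TMED10 and 0.36 for TMED5. TRAM2 had the single negative difference, -0.36. The omission of single libraries ended 11 of these 15 calls, all but those of TRAM1, SSR1, SSR3 and SPCS3.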

How the results depend on the processing

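With each library left out in turn, 8 to 31 members were called higher and 0 to 1 lower at 12 h, and 30 to 39 higher and 1 to 4 lower at 24 h. A higher effect at 24 h was called for 6 to 19 members and a lower one for 0 to 2. Over time in vehicle, 0 to 2 were called higher and 0 to 7 lower. Where an omission left 1 library in a group, that library was assumed to vary like the other groups. Calls over all tested genes also rose and fell with the library omitted, so these swings cannot be read as particular to the members. The members' median change stayed at log2 0.23 to 0.32 at 12 h and 0.47 to 0.59 at 24 h. That of all tested genes was -0.01 to 0.00 and -0.03 to 0.00. At 12 h, a fit of only the 4 libraries compared called 3 lower. That fit called 1109 lower over all its genes, beside 510 in the main fit. At 24 h, total count scaling called 4 lower and moved the members' median from 0.55 to 0.46. Over all tested genes it called 3942 lower, beside 3128 in the main fit. The 1 lower interaction call, TRAM2, became 0 with RLE size factors, the table with recovered reads, no low-count filter and the replicate block. For vehicle over time, 1 member was called higher with the stricter filter and 1 with total count scaling. These fits called 473 and 449 higher over all their genes, beside 408 in the main fit. There, the lower calls numbered 3 in DESeq2, 2 with RLE size factors, 4 with no low-count filter, 0 with only the 4 libraries compared, 3 with the stricter filter and 3 with total count scaling. Over all genes of each fit they numbered 443, 512, 536, 83, 546 and 429 in the same order, beside 482 in the main fit.

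The letters A and B were not shown to pair the libraries: deviations of same-lettered libraries correlated at -0.162 to 0.161. With the letter as a replicate block, calls were 21 higher and 1 lower at 12 h, 37 and 2 at 24 h, 13 and 0 for the interaction, and 1 and 1 over time in vehicle. Over all tested genes they were 705 and 392, 2858 and 3037, 1072 and 1067, and 326 and 354 in the same order. Under the block, the 12 h calls of TRAM1 (adjusted p = 0.0795), TMED10 (0.071) and LMAN1 (0.0848), the 24 h call of SEC13 (0.0524) and the interaction calls of TRAM2 (0.0615) and TMED5 (0.0611) missed the threshold. Crossing the letters of EMD37 at 24 h, an alternative chosen after seeing the data, gave 30 and 1, 41 and 2, 15 and 1, and 1 and 8. Of all tested genes the crossed fit called 1099 and 839, 3243 and 3463, 1571 and 1622, and 1022 and 924. Apart from omitted libraries, 19 of the 25 calls at 12 h, 35 of 39 at 24 h and 13 of 15 interaction calls remained in every alternative. The causes were not tested. Precision was limited by 2 libraries per group and by few reads for scarce members, 21 to 92 per library for SEC31B.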
